A study of Homo sapiens with 40 samples.

Results

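The response to HINFP small interfering RNA (siRNA) was compared between U2OS cells and hTERT-RPE1 cells on day 3 after transfection. U2OS is a human osteosarcoma line, and hTERT-RPE1 is a line of retinal pigment epithelial cells immortalised with telomerase. The comparison rests on 8 of the 40 arrays of the series, chosen by their labels: U2OS with control siRNA, U2OS with HINFP siRNA, hTERT-RPE1 with control siRNA and hTERT-RPE1 with HINFP siRNA, with 2 arrays in each group. All 4 groups were collected on day 3 and received siRNA at 15 nM. HINFP was targeted with a pool of siRNAs, and control cells received a siRNA with no intended human target. The duplicates of a group were transfected at the same time, so that p-values cover the spread between these arrays and not between separate experiments. Each line is a single line standing for its kind, and a tumour origin cannot be told apart from any other property in which both lines differ.

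HINFP (histone H4 transcription factor) is a zinc finger protein that binds the promoters of replication-dependent histone H4 genes. Together with NPAT, a coactivator that is phosphorylated by cyclin E-CDK2, it is known to raise H4 transcription as cells enter S phase. CASP8AP2 (FLASH) acts in the same histone locus bodies and in the 3′ end processing of histone transcripts. The question addressed here was which genes responded differently to HINFP siRNA in both lines. The difference between lines was the effect in U2OS (HINFP siRNA minus control) minus the effect in hTERT-RPE1, on the log2 scale. A positive difference therefore means a more positive effect in U2OS. Genes with an adjusted p below 0.05 were called (limma, Benjamini-Hochberg over 22069 Ensembl genes).

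The targeted transcript was measured first, since it checks the labels. HINFP measured 7.10 and 6.86 with control siRNA and 5.61 and 5.07 with HINFP siRNA in U2OS. In hTERT-RPE1 cells the levels were 7.15 and 7.33 with control and 6.16 and 6.23 with HINFP siRNA. All 4 arrays with HINFP siRNA lay below all 4 control arrays. HINFP fell in U2OS by 1.64 (adjusted p = 2.63e-05), which leaves 32.0% of the control level, and in hTERT-RPE1 by 1.05 (adjusted p = 0.00263), which leaves 48.4%. The difference between lines in this fall was -0.59 (95% interval -1.05 to -0.14) and was not called (adjusted p = 0.156). It was called with all 40 arrays in the fit (adjusted p = 0.0157) and without the first HINFP array of U2OS (-0.87, adjusted p = 0.0203), and was -0.32 without the second. An unequal knockdown in the lines therefore stands beside every result given here, and its part in them was not tested. NPAT (difference -0.11, adjusted p = 0.794) and CASP8AP2 (difference 0.34, adjusted p = 0.266) were not called.

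Only a few markers of the labelled cell types had a symbol. RLBP1 and BEST1, genes of the visual cycle and of a chloride channel of the retinal pigment epithelium, lay between 3.49 and 4.25 on the 8 arrays, below the array medians of 5.23 to 5.34. Among osteoblast markers, IBSP lay between 3.45 and 3.84. MSX2 lay between 6.21 and 6.75 in U2OS and between 4.72 and 5.12 in hTERT-RPE1, while RUNX2 was at 7.44 to 8.07 in U2OS and 9.10 to 9.84 in hTERT-RPE1. These markers thus do not set the lines apart as the labelled cell types would. Duplicates correlated with r between 0.9946 and 0.9972 across genes, and no pair of arrays was identical.

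The lines differed in their response at 695 genes (3.15% of all genes tested), of which 378 (1.71%) had a more positive effect in U2OS and 317 (1.44%) a more negative one. With each array centred on its median, the split was 300 against 416. The absolute difference was at least 1 at 214 of these genes (0.97% of those tested), with 140 positive and 74 negative. Within each line, HINFP siRNA changed 2081 genes in U2OS (9.43%) and 915 in hTERT-RPE1 (4.15%). These 2 counts do not test whether the lines differ, which is what the difference per gene does. A symbol was at hand for 1924 genes, of which 74 (3.85%) had a called difference, 40 positive (2.08%) and 34 negative (1.77%).

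**Figure D1:**
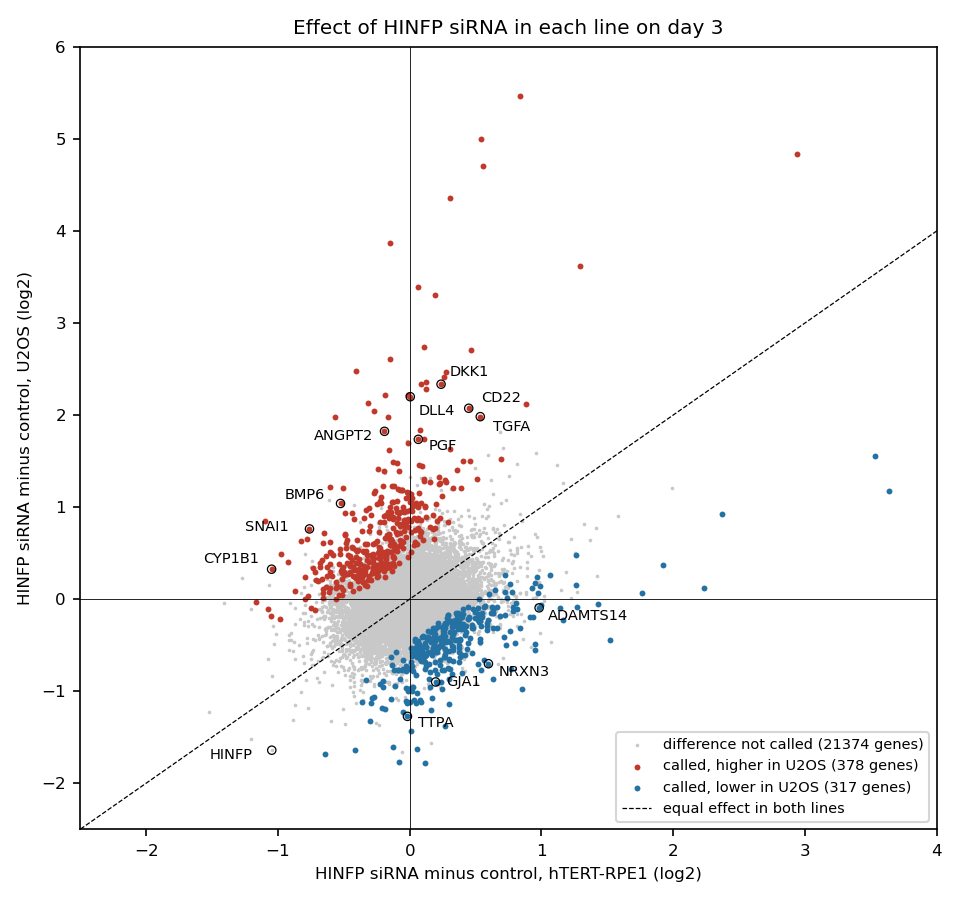
Effect of HINFP siRNA against control (log2) for each of 22069 genes in hTERT-RPE1 (horizontal axis) and U2OS (vertical axis) on day 3. Red and blue points are the 378 and 317 genes whose effect was called higher or lower in U2OS, and they lie off the dashed line of equal effect. Circles mark 14 named genes, and the HINFP circle lies at -1.05 and -1.64.

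Most of the differing genes were called against control in U2OS and not in hTERT-RPE1. Of the 695 genes, 453 were called in U2OS only, and 259 of these had a positive difference. Another 140 were called in hTERT-RPE1 only. Both lines were called with opposite signs at 28 genes and with the same sign at 12, and neither line was called at 62. In the 194 genes called in U2OS only with a negative difference, the control level was higher in U2OS than in hTERT-RPE1 at 126 (64.9%), against 44.5% of all genes. In the 58 genes called in hTERT-RPE1 only with a positive difference, it was higher in U2OS at 13 (22.4%). The other groups called in 1 line lay nearer to all genes. The control level was higher in U2OS at 121 of the 259 called in U2OS only with a positive difference (46.7%). The same held at 42 of the 82 called in hTERT-RPE1 only with a negative difference (51.2%). These shares use the same control arrays as the calls and are given as a description. In bulk samples, fewer cells of a kind and less RNA per cell cannot be told apart.

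**Figure D2:**
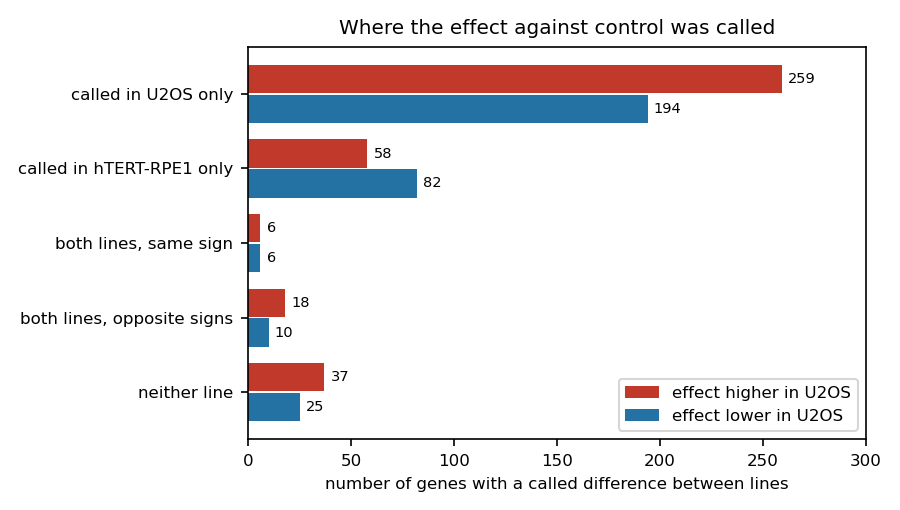
Number of genes with a called difference between lines (horizontal axis), by the line in which the effect against control was also called. Red bars are genes with a higher effect in U2OS and blue bars those with a lower effect. The longest bars are the 259 and 194 genes called in U2OS only.

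Secreted and membrane-bound ligands stood among the largest positive differences. These genes were named by the size of their difference and were not tested as a group. DLL4, a Notch ligand of sprouting vessels, measured 3.58 and 3.63 with control and 5.44 and 6.18 with HINFP siRNA in U2OS, against 3.73 and 3.72, then 3.95 and 3.51, in hTERT-RPE1. In U2OS the groups were apart, and in hTERT-RPE1 they overlapped. The U2OS control arrays and all 4 hTERT-RPE1 arrays lay near the bottom of the range for DLL4, below the array medians of 5.23 to 5.34. DLL4 rose 4.59-fold in U2OS, and the difference between lines was 2.20 (95% interval 1.61 to 2.78, adjusted p = 0.000899). DKK1, a secreted inhibitor of Wnt signalling that binds LRP5 and LRP6, measured 4.73 and 4.72 with control and 7.00 and 7.13 with HINFP siRNA in U2OS. In hTERT-RPE1 cells it was far more abundant, at 9.91 and 9.79 with control and 10.01 and 10.17 with HINFP siRNA. DKK1 rose 5.05-fold in U2OS, and the effect of 0.24 in hTERT-RPE1 was not called (difference 2.10, 95% interval 1.79 to 2.40, adjusted p = 5.33e-06).

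ANGPT2, a ligand of the TIE2 receptor on endothelial cells, measured 3.75 and 3.60 with control and 5.25 and 5.75 with HINFP siRNA in U2OS. In hTERT-RPE1 it stayed between 3.48 and 3.76 on all 4 arrays, near the bottom of the range. The difference was 2.01 (95% interval 1.56 to 2.47, adjusted p = 0.000279), with a 3.54-fold rise in U2OS. PGF, placental growth factor of the VEGF family, measured 5.27 and 5.44 with control and 6.97 and 7.21 with HINFP siRNA in U2OS. The 4 hTERT-RPE1 arrays lay between 4.74 and 4.95 with overlapping groups. PGF rose 3.33-fold in U2OS (difference 1.67, 95% interval 1.31 to 2.04, adjusted p = 0.000255). TGFA, a ligand of the EGF receptor, measured 5.97 and 5.87 with control and 7.76 and 8.04 with HINFP siRNA in U2OS, and 4.60 and 4.74, then 5.28 and 5.13, in hTERT-RPE1. The groups were apart in both lines, but only the 3.95-fold rise in U2OS was called. Its difference of 1.45 (adjusted p = 0.0196) lost its call in 5 of the 8 fits that left out 1 array (highest adjusted p 0.0788).

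BMP6, a ligand of the TGF-beta superfamily, moved in opposite directions. It measured 6.30 and 6.32 with control and 7.26 and 7.44 with HINFP siRNA in U2OS, and 6.34 and 6.47 with control and 5.90 and 5.86 with HINFP siRNA in hTERT-RPE1. The control levels were thus close in both lines, and the HINFP groups lay on either side of them. BMP6 rose by 1.04 in U2OS (adjusted p = 3.11e-05) and fell by 0.53 in hTERT-RPE1 (adjusted p = 0.0112), for a difference of 1.56 (95% interval 1.27 to 1.86, adjusted p = 6.39e-05). SNAI1, a zinc finger repressor of E-cadherin, measured 7.45 and 7.52 with control and 8.18 and 8.31 with HINFP siRNA in U2OS. In hTERT-RPE1 it was at 8.32 and 7.97 with control and 7.47 and 7.30 with HINFP siRNA. The 0.76 rise and the fall, by 0.76, gave a difference of 1.52 (95% interval 1.12 to 1.92, adjusted p = 0.000866).

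DHRS3, which reduces retinaldehyde, and RGS2, which switches off Gq signalling, had the same pattern. DHRS3 measured 5.03 and 5.39 with control and 5.88 and 5.98 with HINFP siRNA in U2OS, and 10.16 and 10.37, then 9.62 and 9.61, in hTERT-RPE1. It rose by 0.72 at a low level in U2OS and fell by 0.65 from a high level in hTERT-RPE1 (difference 1.37, adjusted p = 0.00138). RGS2 measured 8.48 and 8.38 with control and 8.88 and 9.01 with HINFP siRNA in U2OS, and 7.06 and 6.99, then 6.49 and 6.35, in hTERT-RPE1. The groups of RGS2 were apart in both lines, and the difference was 1.12 (adjusted p = 0.0027). NRXN3, a presynaptic adhesion protein, moved the other way. It measured 7.00 and 6.92 with control and 6.26 on both arrays with HINFP siRNA in U2OS, and 8.55 and 8.07, then 8.78 and 9.03, in hTERT-RPE1. NRXN3 fell by 0.70 in U2OS and rose by 0.60 in hTERT-RPE1 (difference -1.30, 95% interval -1.74 to -0.86, adjusted p = 0.00471). Of the 74 genes with a symbol, 6 were called in both lines with opposite signs.

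**Figure D3:**
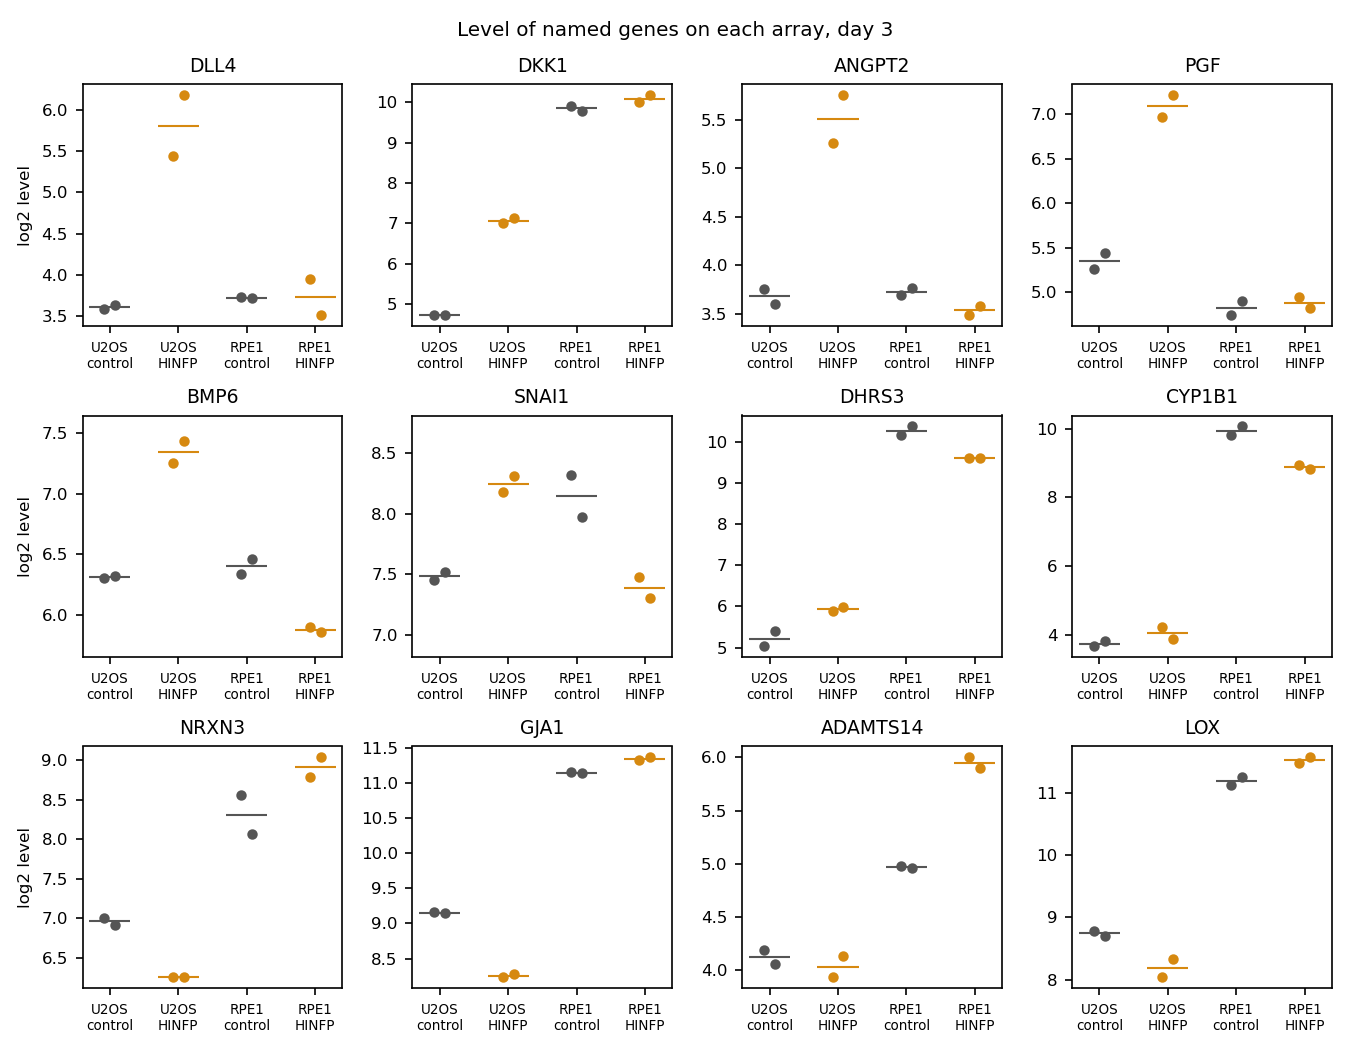
Log2 level (vertical axis, with its own range in each panel) of 12 named genes on each of the 8 arrays, by line and siRNA. Points are arrays and lines are means of 2 arrays. BMP6, SNAI1 and DHRS3 go up in U2OS and down in hTERT-RPE1, and NRXN3 goes the other way.

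Other positive differences were found in a protease, a receptor and a P450 enzyme. KLK6, a secreted serine protease, measured 8.85 and 9.12 with control and 10.09 and 10.30 with HINFP siRNA in U2OS, against 4.07 and 4.94, then 3.87 and 3.93, in hTERT-RPE1. It rose 2.32-fold in U2OS, and the difference of 1.82 had a wide interval (1.18 to 2.46, adjusted p = 0.00623), as the hTERT-RPE1 control arrays lay far apart. CD22, an inhibitory receptor known from B cells that binds sialic acid, measured 7.45 on both control arrays and 9.35 and 9.70 with HINFP siRNA in U2OS. In hTERT-RPE1 it was at 4.33 and 4.17 with control and 5.01 and 4.38 with HINFP siRNA. CD22 rose 4.21-fold in U2OS, and its effect of 0.45 in hTERT-RPE1 was not called (difference 1.63, adjusted p = 0.00356). CYP1B1, a cytochrome P450 induced through the aryl hydrocarbon receptor, was changed in hTERT-RPE1 only. It measured 9.82 and 10.07 with control and 8.96 and 8.83 with HINFP siRNA there, against 3.66 and 3.80, then 4.23 and 3.88, in U2OS. It fell to 48.3% of control in hTERT-RPE1 (difference 1.37, adjusted p = 0.00623), while in U2OS its level lay well below the array median on every array.

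Junction, adhesion and receptor genes were among those named for a negative difference, again by size and without a test of the group. GJA1, which encodes the gap junction protein connexin 43, measured 9.17 and 9.14 with control and 8.23 and 8.28 with HINFP siRNA in U2OS, and 11.16 and 11.14, then 11.33 and 11.36, in hTERT-RPE1. It fell to 53.6% of control in U2OS, and the effect of 0.20 in hTERT-RPE1 was not called (difference -1.10, 95% interval -1.33 to -0.86, adjusted p = 0.000223). NCAM1, a neural cell adhesion molecule, measured 8.07 and 8.21 with control and 7.76 and 7.31 with HINFP siRNA in U2OS, and 3.52 and 3.65, then 4.15 and 3.82, in hTERT-RPE1. All 4 hTERT-RPE1 arrays of NCAM1 lay below the array medians of 5.23 to 5.34. IL1R1, the signalling receptor of interleukin-1, measured 5.98 and 5.81, then 5.35 on both arrays, in U2OS, and 5.45 and 5.58, then 6.02 and 5.88, in hTERT-RPE1. Both genes fell in U2OS alone, and their differences were -1.0 for NCAM1 (adjusted p = 0.0403) and -0.98 for IL1R1 (adjusted p = 0.0254). Each of these 2 calls was lost in 6 of the 8 fits that left out 1 array (highest adjusted p 0.143 and 0.107).

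TTPA, which transfers alpha-tocopherol, measured 6.04 and 5.95 with control and 4.72 on both arrays with HINFP siRNA in U2OS. In hTERT-RPE1 all 4 arrays lay between 3.88 and 4.06, near the bottom of the range and below the array medians of 5.23 to 5.34. TTPA fell to 41.3% of control in U2OS (difference -1.26, 95% interval -1.71 to -0.80, adjusted p = 0.00708). MGST1, a membrane-bound glutathione transferase, measured 9.59 and 9.66 with control and 8.81 and 8.53 with HINFP siRNA in U2OS, and 11.13 and 10.56, then 10.98 and 11.03, in hTERT-RPE1. Its groups were apart in U2OS and overlapped in hTERT-RPE1. Its difference of -1.11 (adjusted p = 0.0222) lost its call in 5 of the 8 fits that left out 1 array (highest adjusted p 0.0899).

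ADAMTS14, COL8A1 and LOX, genes of collagen and its processing, also had negative differences. ADAMTS14, a protease that trims procollagen, measured 4.98 and 4.96 with control and 6.00 and 5.90 with HINFP siRNA in hTERT-RPE1, against 4.19 and 4.06, then 3.93 and 4.13, in U2OS. It rose 1.98-fold in hTERT-RPE1 (difference -1.08, 95% interval -1.41 to -0.75, adjusted p = 0.00263). COL8A1, a short-chain collagen, measured 7.06 and 6.90, then 7.62 and 7.60, in hTERT-RPE1 and 4.57 and 4.74, then 4.54 and 4.46, in U2OS. It rose 1.55-fold in hTERT-RPE1 (difference -0.78, adjusted p = 0.0107). LOX, lysyl oxidase, which cross-links collagen and elastin, measured 8.79 and 8.71 with control and 8.04 and 8.34 with HINFP siRNA in U2OS, and 11.12 and 11.25, then 11.47 and 11.56, in hTERT-RPE1. The groups were apart in both lines and in opposite directions, but only the fall in U2OS, by 0.56, was called (difference -0.89, adjusted p = 0.00708). Of the 15 measured members of a list of 41 extracellular matrix genes, COL8A1 was the only one with a called difference, beside 3.15% of all genes. An unadjusted p under 0.05 was found at 4 of the 15 (26.7%), beside 17.2% of all genes. LAMC1, a laminin chain, rose by 0.52 in U2OS and 0.67 in hTERT-RPE1, and COL6A3, a collagen VI chain, by 0.45 and 0.57.

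**Figure D4:**
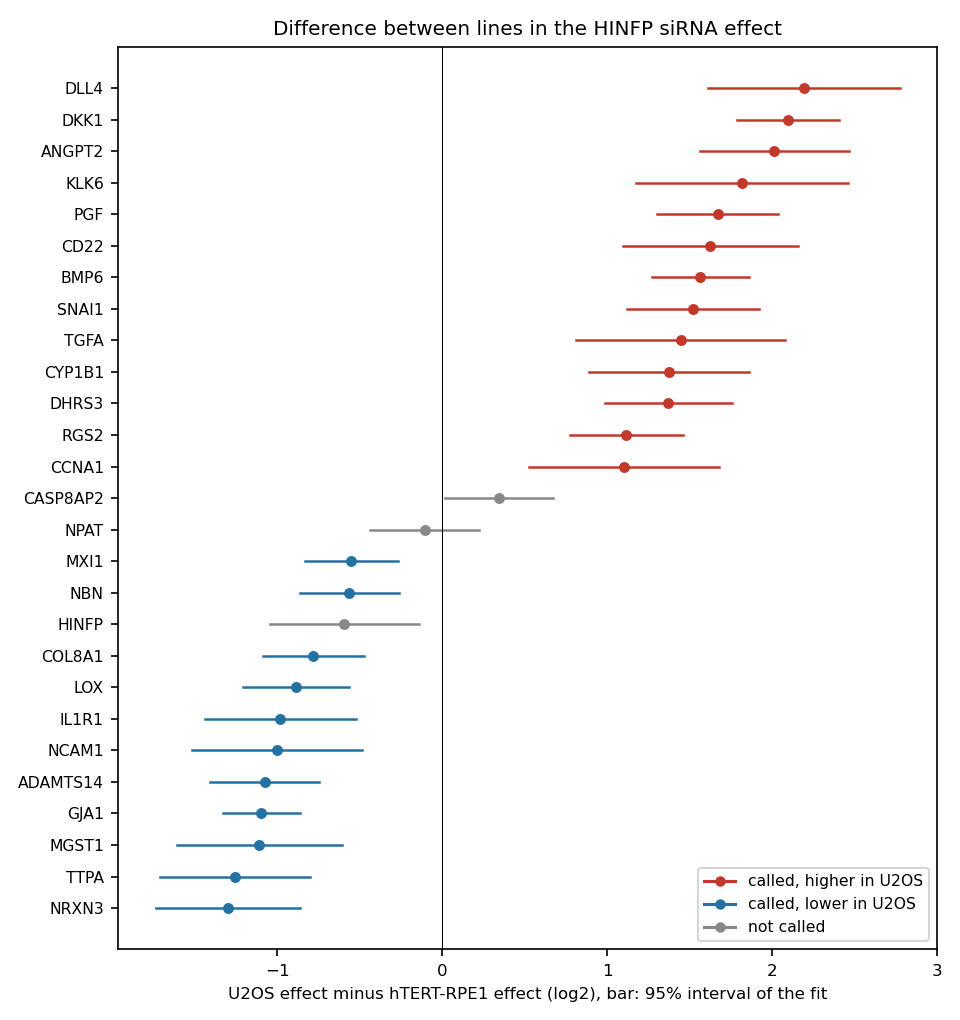
Difference between lines in the effect of HINFP siRNA (horizontal axis, U2OS minus hTERT-RPE1, log2) for 27 named genes, with the 95% interval of the fit as a bar. Red and blue genes were called, from 2.20 for DLL4 to -1.30 for NRXN3, and grey genes (HINFP, NPAT and CASP8AP2) were not.

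Lists of 15 canonical H4, 13 H3, 17 H2A, 18 H2B and 6 H1 genes and of 10 genes of histone transcript processing had 0 members with a symbol, so they were not analysed here.

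Of the 44 genes on a list of DNA replication factors, 16 were measured with a symbol and 0 had a called difference by limma, beside 3.15% of all genes. At an unadjusted p under 0.05 there were 4 (25.0%), beside 17.2% of all genes. Their median difference was 0.15, beside 0.01 for all genes. ORC1L, the large subunit of the origin recognition complex, fell by 0.63 and RFC4, a clamp loader subunit, by 0.46 in U2OS. FEN1, the flap endonuclease of Okazaki fragment maturation, fell by 0.80 and RPA2, which coats single-stranded DNA, by 0.39 in hTERT-RPE1. Of 8 measured G1/S and E2F genes (list of 26), CCNA1, a germline A-type cyclin, had a called difference. CCNA1 measured 4.28 and 4.00 with control and 4.96 and 5.16 with HINFP siRNA in U2OS, and 4.24 and 3.97, then 3.68 and 4.16, in hTERT-RPE1. The groups were apart in U2OS only, and the difference of 1.10 (adjusted p = 0.0436) lost its call in 7 of the 8 fits that left out 1 array (highest adjusted p 0.143). In hTERT-RPE1, E2F1 fell by 0.55, E2F2 by 0.72 and CCNE1, cyclin E1, by 0.49, and E2F2 also fell by 0.44 in U2OS. The CCNE1 difference between lines of 0.69 was just short of the threshold (adjusted p = 0.0542).

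Of 14 measured DNA repair and checkpoint genes (list of 32), only NBN had a called difference, beside 3.15% of all genes. An unadjusted p under 0.05 was found at 2 of the 14 (14.3%), beside 17.2% of all genes. NBN is a subunit of the MRN complex at DNA breaks. NBN measured 9.16 and 9.10 with control and 8.75 and 8.52 with HINFP siRNA in U2OS, and 8.20 and 8.09, then 8.10 and 8.34, in hTERT-RPE1. It fell in U2OS, by 0.49, and the difference of -0.56 (adjusted p = 0.0475) lost its call in 6 of the 8 fits that left out 1 array (highest adjusted p 0.177). Of 8 measured p53 target genes (list of 45), 0 had a called difference by limma, beside 3.15% of all genes. At an unadjusted p under 0.05 there were 3 (37.5%), beside 17.2% of all genes. The median difference of the p53 targets was -0.22, beside 0.01 for all genes. PMAIP1, which encodes the BH3-only protein NOXA, rose in hTERT-RPE1 by 0.46 and had an effect of 0.07 in U2OS. No identifier was paired with CDKN1A, MDM2 or GDF15 in the symbols used here, so no value is given under these names.

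Of 12 measured NF-kB and cytokine genes (list of 30), 3 fell in both lines, beside 113 of all genes (0.512%) and 22 of those with a symbol (1.14%). A called difference by limma was found at 0 of them, and 2 (16.7%) had an unadjusted p under 0.05, beside 17.2% of all genes. IL8, a neutrophil chemokine, measured 10.10 and 10.04 with control and 8.82 and 9.02 with HINFP siRNA in U2OS, and 8.50 and 8.98, then 7.88 and 7.87, in hTERT-RPE1. Its groups were apart in both lines, with effects of -1.15 and -0.87. IL1A, which encodes interleukin-1 alpha, had effects of -0.88 and -0.79. PTGS2, the inducible cyclooxygenase, had effects of -0.57 and -0.89. BIRC3, an inhibitor of apoptosis, fell by 0.83 in U2OS, and its difference of -0.76 was not called (adjusted p = 0.0898). Not all members fell: 4 of the 12 were called lower and 1 higher in U2OS, and 4 lower and 0 higher in hTERT-RPE1. TNFAIP2 was the member called higher, by 0.50 in U2OS, and its effect of 0.34 in hTERT-RPE1 was not called.

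The hypoxia response list held 2 called differences among 5 measured members (list of 24), beside 3.15% of all genes. Both were negative, in LOX and MXI1. An unadjusted p under 0.05 was found at 4 of the 5 (80.0%), beside 17.2% of all genes. MXI1, which binds MAX in place of MYC, measured 7.42 and 7.63 with control and 8.20 and 8.15 with HINFP siRNA in hTERT-RPE1, and 7.73 on both control arrays, then 7.80 and 7.85, in U2OS. It rose 1.57-fold in hTERT-RPE1, and the difference of -0.55 (adjusted p = 0.0396) lost its call in 7 of the 8 fits that left out 1 array (highest adjusted p 0.123). P4HA2, a collagen prolyl hydroxylase, rose in hTERT-RPE1 by 0.49, while LDHA, lactate dehydrogenase A, and CA9, carbonic anhydrase IX, passed no test. The median difference of the 5 genes was -0.52, beside 0.01 for all genes.

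In the list of 34 TGF-beta and Wnt genes, 11 were measured and only DKK1 had a called difference, beside 3.15% of all genes. An unadjusted p under 0.05 was found at 5 of the 11 (45.5%), beside 17.2% of all genes. WNT5A, a non-canonical Wnt ligand, fell in U2OS by 0.73 with a difference of -0.39 (adjusted p = 0.193). Of 5 measured MAPK and growth factor genes (list of 32), only TGFA was called, beside 3.15% of all genes. The unadjusted p was under 0.05 at 4 of these 5 (80.0%), beside 17.2% of all genes. HBEGF, a second ligand of the EGF receptor, measured 9.09 on both control arrays and 9.82 and 10.03 with HINFP siRNA in U2OS, and 9.64 and 9.66, then 10.04 and 9.91, in hTERT-RPE1. It rose in U2OS by 0.84, and its difference of 0.51 was just short of the threshold (adjusted p = 0.0502). Lists of cholesterol synthesis (7 measured of 24) and core apoptosis genes (8 of 23) had 0 called differences by limma. At an unadjusted p under 0.05 there were 2 (28.6%) and 1 (12.5%) genes, beside 17.2% of all genes.

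The largest differences of all lay in Ensembl genes without a symbol here. ENSG00000183813 measured 4.28 and 4.35 with control and 9.99 and 9.58 with HINFP siRNA in U2OS, and 4.66 and 4.85, then 5.78 and 5.41, in hTERT-RPE1. It rose 44.3-fold in U2OS and 1.79-fold in hTERT-RPE1 (difference 4.63, adjusted p = 6e-07). ENSG00000252421 rose 32.0-fold in U2OS, from 4.42 and 4.15 to 9.39 and 9.18, with 3.91 and 3.80, then 4.44 and 4.34, in hTERT-RPE1 (difference 4.46, adjusted p = 6e-07). On the negative side, ENSG00000130513 measured 4.39 and 4.56 with control and 8.53 and 7.69 with HINFP siRNA in hTERT-RPE1, and 8.80 and 8.81, then 9.91 and 10.06, in U2OS. It rose in both lines, 12.5-fold in hTERT-RPE1 and 2.26-fold in U2OS (difference -2.46, adjusted p = 0.000658). ENSG00000136275 rose 4.70-fold in hTERT-RPE1 alone, from 3.98 and 3.68 to 5.99 and 6.14, with 3.36 and 3.20, then 3.54 and 3.26, in U2OS (difference -2.11, adjusted p = 8.68e-05).

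Whether a difference between lines was particular to HINFP siRNA was tested against siRNA pools for NPAT and CASP8AP2 on the same day, also with 2 arrays in each group. The test subtracts 1 siRNA from the other within each line, so that the control arrays cancel. It called 172 genes against NPAT siRNA (0.779%) and 363 against CASP8AP2 siRNA (1.64%). Among the 695 genes that differed between lines under HINFP siRNA, 84 were called against NPAT siRNA, 85 against CASP8AP2 siRNA and 34 against both. Set against control, 256 of the 695 also had a called difference between lines with NPAT siRNA and 419 with CASP8AP2 siRNA. No share over all genes stands beside these last counts, so they do not measure how far the responses to the pools are alike. Since the same HINFP arrays chose these genes, the shares are a description. The differences under each siRNA against control share the control arrays and are given side by side only. With NPAT and CASP8AP2 siRNA they were 1.19 and 1.66 for DLL4, 1.27 and 1.29 for BMP6, 1.46 and 1.07 for KLK6. For CYP1B1 they were 1.57 and 1.07. All of these were called, and DLL4, BMP6, KLK6 and CYP1B1 were not called against either pool.

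Among the named genes with a symbol, CD22 and PGF were called against both other pools. CD22 had a difference between lines of 1.63 with HINFP siRNA, -0.24 with NPAT siRNA and 0.16 with CASP8AP2 siRNA. In U2OS, where HINFP siRNA gave 9.35 and 9.70, NPAT siRNA gave 8.09 and 8.02 and CASP8AP2 siRNA 8.28 and 8.02. HINFP siRNA exceeded NPAT siRNA by 1.87 (adjusted p = 0.00318) and CASP8AP2 siRNA by 1.47 (adjusted p = 0.00947) in this difference. PGF had differences of 1.67, 0.54 and 0.14 with the HINFP, NPAT and CASP8AP2 pools, and HINFP siRNA exceeded them by 1.13 (adjusted p = 0.00745) and 1.53 (adjusted p = 0.0009). The PGF level in U2OS was also above control with NPAT siRNA (6.44 and 6.65) and CASP8AP2 siRNA (6.62 and 6.83). In hTERT-RPE1, NPAT siRNA gave 5.39 and 5.54 and CASP8AP2 siRNA 6.01 and 6.08, above the control and HINFP arrays (4.74 to 4.95). ANGPT2 was called against NPAT siRNA only (1.40, adjusted p = 0.00716), as its difference of 1.35 with CASP8AP2 siRNA lay nearer to the 2.01 with HINFP siRNA (0.67, adjusted p = 0.155). DKK1 also exceeded NPAT siRNA (0.70, adjusted p = 0.042) and was at -0.07 against CASP8AP2 siRNA (adjusted p = 0.878). After PGF and CD22, TGFA had the largest value against CASP8AP2 siRNA among genes with a symbol named by size. It was not called (1.18, adjusted p = 0.0716).

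On the negative side, ADAMTS14 had a difference of -1.08 with HINFP siRNA, -0.07 with NPAT siRNA and -1.03 with CASP8AP2 siRNA. In hTERT-RPE1, where HINFP siRNA gave 6.00 and 5.90, CASP8AP2 siRNA gave 6.12 and 5.98 and NPAT siRNA 4.98 and 5.24. ADAMTS14 was called against NPAT siRNA (-1.01, adjusted p = 0.00764) and was not called against CASP8AP2 siRNA (-0.04, adjusted p = 0.938). LOX (-0.76, adjusted p = 0.0362), GJA1 (-0.57, adjusted p = 0.0336) and MXI1 (-0.75, adjusted p = 0.0189) were likewise called against NPAT siRNA alone. NCAM1 (-0.97, adjusted p = 0.0961) and SNAI1 (-0.79, adjusted p = 0.0841) were not called, and with ADAMTS14 they had the 3 most negative values of this test among genes with a symbol named by the size of their difference. For SNAI1 the difference between lines was positive with both pools, at 1.52 with HINFP siRNA and 2.31 with NPAT siRNA. Against CASP8AP2 siRNA, NRXN3 (-0.94, adjusted p = 0.0367) and DHRS3 (-0.94, adjusted p = 0.0195) were called. The DHRS3 difference between lines was positive with each pool, at 1.37 with HINFP, 1.43 with NPAT and 2.32 with CASP8AP2 siRNA. Its negative value here thus marks a larger positive difference with CASP8AP2 siRNA. Among the genes named by the size of their difference, NCAM1 (-0.57, adjusted p = 0.292) and GJA1 (-0.40, adjusted p = 0.103) were the next most negative and were not called.

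CCNA1 (1.57, adjusted p = 0.0104) was called against CASP8AP2 siRNA, which gave 6.94 and 7.39 in U2OS and 7.64 and 7.55 in hTERT-RPE1. The named identifiers without a symbol were each called against both other pools. Their differences with NPAT and CASP8AP2 siRNA were 1.46 and 2.52 for ENSG00000183813 and 2.48 and 2.35 for ENSG00000252421. They were -5.32 and -5.20 for ENSG00000130513, and -0.22 and -0.56 for ENSG00000136275. For ENSG00000130513 both were more negative than the -2.46 with HINFP siRNA. In U2OS, CASP8AP2 siRNA gave 9.17 and 9.22 for ENSG00000183813, where HINFP siRNA gave 9.99 and 9.58. For ENSG00000252421 it gave 10.45 and 10.06 in U2OS, above the 9.39 and 9.18 with HINFP siRNA. In hTERT-RPE1 it gave 7.09 and 7.13 for ENSG00000183813 and 7.25 and 7.71 for ENSG00000252421. The rise of these genes in U2OS was thus also seen with CASP8AP2 siRNA, which raised them in hTERT-RPE1 too.

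**Figure D5:**
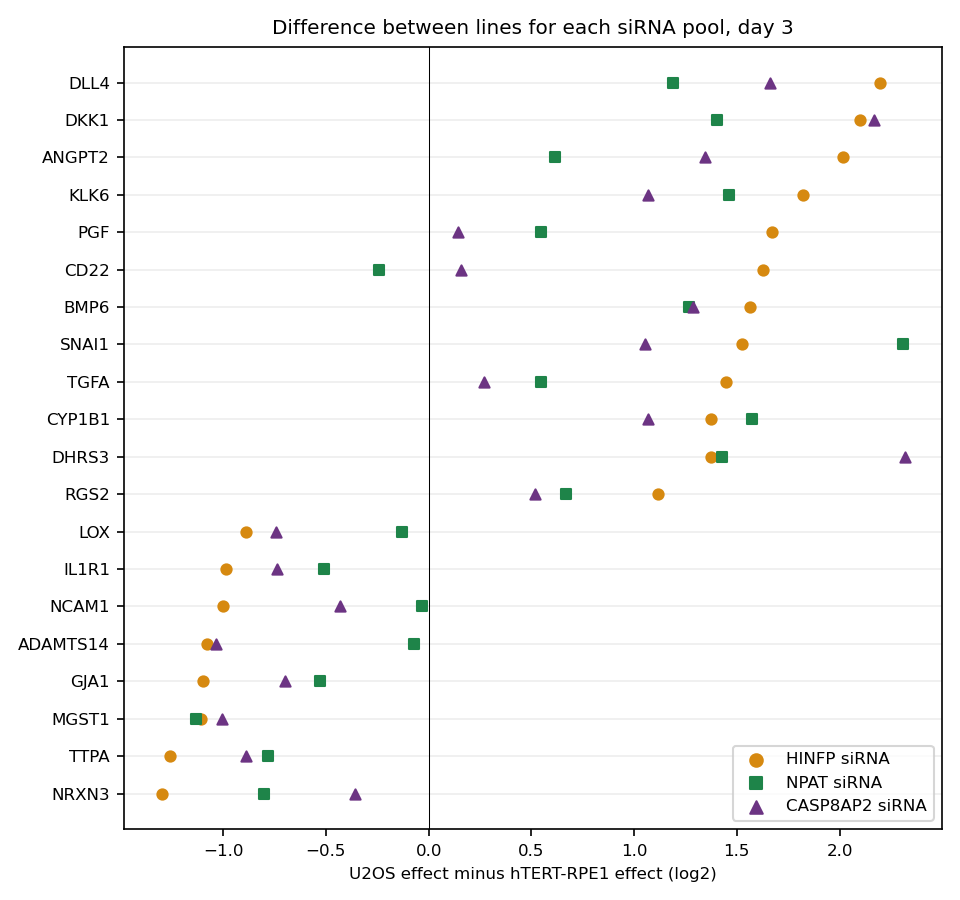
Difference between lines (horizontal axis, U2OS effect minus hTERT-RPE1 effect, log2) of 20 genes named by size or by opposite signs, with HINFP (circles), NPAT (squares) and CASP8AP2 siRNA (triangles). All 3 pools were set against the same control arrays. The CD22 square and triangle lie near 0 at -0.24 and 0.16.

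The promoters of the differing genes were searched for the letters ACGTCCG, the core of the HINFP recognition site, on both strands. The windows ran from 250 bases before to 50 bases after each start in RefSeq (GRCh38.p14), and a gene counted once if any of its windows held the letters. Of all 35116 windows, 467 (1.33%) held them, and of the 1486 measured genes with a window, 34 (2.29%). Among genes with a called difference, it was 1 of 54 (1.85%, exact Clopper-Pearson 95% interval 0.0469 to 9.89). None of the 29 genes with a positive difference held the letters (upper bound 11.9%), and 1 of the 25 with a negative difference did. Of genes lower with HINFP siRNA, 1 of 99 in U2OS (1.01%) and 1 of 51 in hTERT-RPE1 (1.96%) held them. With so few genes, a share cannot be told apart from that of all genes.

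The 1 differing gene with a match was CAV1, which encodes caveolin-1 and is named here after its values were seen. CAV1 measured 12.07 and 12.19 with control and 11.47 and 11.35 with HINFP siRNA in U2OS, and 12.35 and 12.31, then 12.40 and 12.51, in hTERT-RPE1. It fell in U2OS, by 0.72 (difference -0.85, adjusted p = 0.0231). Its match is shown with the same stretch of DLL4 and DKK1, the genes with a symbol that had the largest differences and whose windows hold no match. The 250 bases before the start are given 5′ to 3′ on the plus strand, at chr7:116524759-116525008 for CAV1, chr15:40929090-40929339 for DLL4 and chr10:52314031-52314280 for DKK1. Capitals mark the match, which lies 129 to 123 bases before the first of 3 CAV1 starts. A match is a run of letters and no evidence of binding.
CAV1: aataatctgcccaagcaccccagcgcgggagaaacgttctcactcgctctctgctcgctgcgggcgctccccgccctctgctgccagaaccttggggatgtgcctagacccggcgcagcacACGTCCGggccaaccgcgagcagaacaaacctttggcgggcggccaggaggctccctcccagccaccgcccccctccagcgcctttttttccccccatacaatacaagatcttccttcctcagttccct
DLL4: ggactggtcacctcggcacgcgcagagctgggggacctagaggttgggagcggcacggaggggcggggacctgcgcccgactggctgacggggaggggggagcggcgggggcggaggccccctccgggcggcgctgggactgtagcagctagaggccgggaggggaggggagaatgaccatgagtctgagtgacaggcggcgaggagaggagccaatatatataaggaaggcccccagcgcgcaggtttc
DKK1: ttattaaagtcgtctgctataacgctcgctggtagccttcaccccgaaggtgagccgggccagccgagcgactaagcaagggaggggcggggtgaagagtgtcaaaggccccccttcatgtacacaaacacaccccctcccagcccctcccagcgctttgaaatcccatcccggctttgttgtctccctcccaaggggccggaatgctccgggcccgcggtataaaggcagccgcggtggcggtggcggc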

How the data were processed

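Total RNA was measured on Affymetrix Human WT 1.1 arrays. The authors processed them with the Bioconductor packages affy and limma and a custom probe grouping of 1 set per Ensembl gene, and deposited log2 values per gene and array. RMA is named in the submitters' processing notes. The version of the grouping and its genome build are not given in the sources used here, so no coordinates are given for array genes. Array means are nearly equal, so that effects are relative to the other genes on an array. The number of arrays limits the precision.

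Here limma 3.58.1 in R 4.3.3 (lmFit and eBayes, two-sided) was fitted to the 16 arrays of day 3 with a mean per group for 8 groups and 8 residual degrees of freedom, with no filter. The Benjamini-Hochberg adjustment covered 22069 genes. The median standard error of a difference between lines was 0.161. The procedure was tested on simulated data. Symbols are those the authors paired with Ensembl identifiers in their screen and cover 1924 genes (8.72%). The tables held 0 further columns of per-sample values.

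Named were the 10 largest positive and 10 largest negative called differences with a symbol in which every pair of arrays in U2OS lay beyond every pair in hTERT-RPE1, up to 4 opposite-sign genes each way, up to 4 members of each list, HINFP, NPAT and CASP8AP2, and 2 identifiers each way. The rule also gave 2 genes that are not reported here and were not replaced. For the tests against other siRNA pools, these were the 3 largest each way, and other called genes among those named were added. The genes, lists and comparison were chosen with earlier results of these data known. Lists were described by counts and medians, without a set test. Alternatives changed the arrays in the fit, the scaling, a filter at a mean of 5, the variance trend, a threshold of 1, the replicate block and single arrays. Promoters were searched and intervals computed in Python 3.11.15 with scipy 1.17.1.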

Additional observations from a re-analysis of the deposited data

Results flagged for a closer look

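The effect of HINFP siRNA differed between U2OS and hTERT-RPE1 by the test of the difference itself at 695 genes, and each called gene named above is listed with its log2 difference, U2OS minus hTERT-RPE1. Groups of 2 arrays are too small to look for single outlying arrays. Among ligands the values were 2.20 for DLL4, 2.10 for DKK1, 2.01 for ANGPT2, 1.67 for PGF, 1.56 for BMP6 and 1.45 for TGFA. Other positive values were 1.82 for KLK6, 1.63 for CD22, 1.52 for SNAI1, 1.37 for CYP1B1, 1.37 for DHRS3, 1.12 for RGS2 and 1.10 for CCNA1. Negative values among adhesion and receptor genes were -1.30 for NRXN3, -1.10 for GJA1, -1.0 for NCAM1 and -0.98 for IL1R1. Among genes of collagen processing they were -1.08 for ADAMTS14, -0.89 for LOX and -0.78 for COL8A1. The remaining negative values were -1.26 for TTPA, -1.11 for MGST1, -0.56 for NBN and -0.55 for MXI1. Identifiers without a symbol had 4.63 (ENSG00000183813), 4.46 (ENSG00000252421), -2.46 (ENSG00000130513) and -2.11 (ENSG00000136275).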

How the results depend on the processing

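Of the 28 named genes with a called difference, 20 kept their call and direction in every alternative that could be computed for them (up to 15), and CCNA1, NBN, MXI1, NCAM1, IL1R1, MGST1, TGFA and COL8A1 lost it in at least 1. The NPAT difference, never called, ranged from -0.219 to 0.00459 when 1 array was left out and turned positive without the second HINFP array of hTERT-RPE1. Counts of calls depended on the arrays that share the estimate of spread. In the order difference between lines, U2OS, hTERT-RPE1, against NPAT siRNA and against CASP8AP2 siRNA, they were 695, 2081, 915, 172 and 363 as reported, 289, 1108, 25, 110 and 116 with only the arrays compared, 1708, 3467, 2281, 566 and 1030 with all 40 arrays, and 214, 172, 46, 80 and 152 with an absolute effect of at least 1. Leaving out 1 array gave 284 to 636, 814 to 1653, 145 to 698, 73 to 116 and 138 to 545, where the lone array of a group is assumed to vary like the other groups. The count of differences between lines moved by over 1.5 times without the first (284) or second (423) U2OS control array, the second U2OS HINFP array (335), or the first (399) or second (291) hTERT-RPE1 HINFP array. The same U2OS arrays gave 833, 1141 and 814 calls in U2OS, and the hTERT-RPE1 HINFP arrays 145 and 344 in hTERT-RPE1. A filter at a mean of 5 raised the hTERT-RPE1 count to 1382. It left out DLL4, ANGPT2, TTPA, ADAMTS14, CCNA1 and ENSG00000136275, so these were not checked by it. Centring on the median turned the split of positive against negative calls from 378 and 317 to 300 and 416 for the difference, and from 471 and 444 to 556 and 335 in hTERT-RPE1, and moved the median of all genes from 0.01 to -0.04. For the difference, the split was also mostly negative with all 40 arrays (798 and 910) and with the filter at 5 (388 and 421). The cause was not tested. In the 100 bases nearest the start, 0.808% of all genes with a window held the HINFP letters, and the share was 0.0% in genes with a called difference, in those with a negative difference, in genes lower or higher in U2OS and in those higher in hTERT-RPE1, while 1.96% of genes lower in hTERT-RPE1 held them.

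Replicate numbers in the labels name arrays of different groups alike. Same-numbered arrays correlated in their deviations from the group mean between -0.0785 and 0.152, so that a pairing was not taken as given. With the replicate number as a block, 695 differences between lines were called, of which 632 were the same genes.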

Other observations

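Called genes outside the rule for named genes, chosen here after their values were seen, include several signalling genes. HEY1, a transcriptional target of Notch, measured 5.59 and 5.49 with control and 6.60 and 6.81 with HINFP siRNA in U2OS, and 4.67 and 4.82, then 4.97 and 4.48, in hTERT-RPE1. The groups were apart in U2OS and overlapped in hTERT-RPE1, with a difference of 1.18 (adjusted p = 0.00834). LRP5, a Wnt co-receptor, had a difference of 0.80, PTCH1, the Hedgehog receptor, of 0.87, and IL6R, the interleukin-6 receptor, of 0.82. GRB7, an adaptor of receptor tyrosine kinases, measured 4.57 and 4.23, then 5.28 and 5.27, in U2OS and 5.85 and 6.08, then 5.54 and 5.55, in hTERT-RPE1 (difference 1.29, adjusted p = 0.00101).

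AHRR, the repressor of the aryl hydrocarbon receptor, measured 4.99 and 5.04 with control and 5.69 and 5.28 with HINFP siRNA in U2OS, and 6.72 and 6.94, then 6.11 and 6.28, in hTERT-RPE1. It rose by 0.47 in U2OS and fell by 0.63 in hTERT-RPE1. ALDH1A3, which makes retinoic acid, fell by 0.66 in hTERT-RPE1 and had an effect of 0.22 in U2OS. SOCS1, an inhibitor of cytokine signalling, fell by 0.61 in hTERT-RPE1 with an effect of 0.38 in U2OS. On the negative side, SCN9A, a voltage-gated sodium channel, rose by 0.74 and ABCC4, an efflux pump, by 0.56 in hTERT-RPE1, with effects of 0.02 and -0.08 in U2OS. PROCR, the protein C receptor, fell by 0.77 in U2OS, with an effect of -0.09 in hTERT-RPE1.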
